A study of Mus musculus with 3 samples.

Results

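The 5 genes that mark renin cells, Ren1, Ren2, Akr1b7, Crip1 and Rgs5, were sought by symbol among the probe sets of the array. Of these 5 genes 2 were found, Crip1 and Rgs5, each on 1 probe set that names no other gene, out of 35557 probe sets and 19938 genes measured by probe sets with 1 symbol. Ren1, Ren2 and Akr1b7 stood on 0 probe sets by symbol, Entrez identifier, RefSeq accession or older symbol, also among the 1621 probe sets that list several genes, and were not analysed here. A further 12147 probe sets have no listed gene, and whether one of them carries a transcript of these 3 genes is not known here. No value could therefore be assigned to renin's transcript, and the sorted cells could not be checked by it.

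The samples were cells gated on YFP by flow sorting, from digested cortex of kidneys of adult male Ren1c-YFP mice, a reporter line in which regulatory DNA of the renin gene drives yellow fluorescent protein. The mice drank captopril at 0.5 mg/ml and ate low-salt chow for 2 weeks. There was 1 group of 3 arrays, replicates 2, 4 and 5, all with the same reporter, drug and diet, and the strain is unspecified in the labels. No untreated, YFP-negative or unsorted sample was analysed here, so the values are levels and not effects of the drug, the diet or the sort. Per the labels no sample is a pool, but no animals are named, and a p-value then reflects the spread of 3 samples that may be technical.

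Renin, the aspartic protease that cuts angiotensinogen, is made by juxtaglomerular cells at the glomerular pole of the afferent arteriole, and these cells are related to vascular smooth muscle and to pericytes. Captopril blocks angiotensin-converting enzyme and so removes the feedback of angiotensin II on renin, and low salt adds to this, so that more cells along the arteriole make renin. Ren2 is a second renin gene that only some mouse strains carry, and Akr1b7 encodes an aldo-keto reductase known as a marker of mouse renin cells. Crip1 encodes a small LIM domain protein that binds zinc. Rgs5 encodes a protein that speeds GTP hydrolysis by G protein alpha subunits and so shortens signalling from receptors such as that of angiotensin II, and it is widely used as a pericyte marker.

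The windows upstream of the RefSeq starts of Crip1 and Rgs5 are shown because these are the members with a value, and that of Ren1 because regulatory DNA of renin drives the reporter that gated the cells. Each covers 250 bases before the start in RefSeq's GRCm38.p6 annotation, on the plus strand, at chr12:113151762-113152011 for Crip1, chr1:169655251-169655500 for Rgs5 and chr1:133350424-133350673 for Ren1. Capitals mark the motifs that were searched on both strands.
Crip1: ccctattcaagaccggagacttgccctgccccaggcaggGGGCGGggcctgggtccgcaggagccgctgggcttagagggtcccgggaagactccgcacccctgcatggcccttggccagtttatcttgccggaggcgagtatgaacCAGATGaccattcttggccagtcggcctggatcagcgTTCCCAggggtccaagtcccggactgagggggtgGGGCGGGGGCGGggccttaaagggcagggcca
Rgs5: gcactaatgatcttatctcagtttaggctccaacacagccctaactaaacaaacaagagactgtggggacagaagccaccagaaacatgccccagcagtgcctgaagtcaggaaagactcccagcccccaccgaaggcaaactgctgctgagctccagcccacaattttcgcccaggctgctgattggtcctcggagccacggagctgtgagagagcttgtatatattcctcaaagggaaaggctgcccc
Ren1: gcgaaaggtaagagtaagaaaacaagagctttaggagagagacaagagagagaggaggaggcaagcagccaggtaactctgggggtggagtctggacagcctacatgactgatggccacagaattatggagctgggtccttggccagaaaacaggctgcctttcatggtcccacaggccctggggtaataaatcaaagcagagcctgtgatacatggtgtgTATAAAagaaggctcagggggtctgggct
The motifs were the TATA box (TATAAA), the E box (CANNTG), the RBPJ motif (TGGGAA), the core of the cAMP response element (TGACG), the GC box (GGGCGG) and the CArG box, and no 2 matches overlapped.

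The Crip1 window held 3 GC boxes, which start 211, 32 and 26 bases before the start, 1 E box at 103 bases and 1 RBPJ motif on the minus strand at 66 bases. Of 32851 windows of this length, 32.7% held a GC box, 66.2% an E box and 21.6% an RBPJ motif. Its GC content was 67.2%, above the median window at 52.4%, and it held 13 CpG pairs. The Rgs5 window held none of the 6 motifs, had a GC content of 53.6% and held 4 CpG pairs. The TATA box was searched as the exact letters TATAAA, so the stretch tatatatt near the end of this window was not counted. The Ren1 window held a TATA box 29 bases before the start, as 12.4% of windows did, and no other motif of the 6. The Akr1b7 window held none and had a GC content of 46.8%. The CRE core and the CArG box, found in 17.8% and 1.47% of windows, matched no window of the 4 genes. These matches describe letters in short windows, and the arrays did not measure binding there.

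Crip1 and Rgs5 were both far above background in every sample. Log2 signals of Crip1 were 12.15, 11.79 and 11.91 in replicates 2, 4 and 5, a mean of 11.95 ± 0.18 (SD, n = 3). Those of Rgs5 were 12.39, 12.26 and 12.46, a mean of 12.37 ± 0.10 (SD, n = 3). The 3 samples of each gene lay close together, replicate 2 being the highest for Crip1 and replicate 5 for Rgs5, and replicate 4 the lowest for both.

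Background was set on each array by 1027 olfactory receptor genes (a family of the nasal epithelium that served as silent genes), as the 95th percentile of their log2 signals, and came to 6.20, 6.32 and 6.50. Above that level Crip1 stood at 5.95, 5.47 and 5.40 log2 units and Rgs5 at 6.19, 5.94 and 5.96. The mean was 5.61 ± 0.17 (SE) for Crip1, a signal 48.8 times the level, and 6.03 ± 0.14 (SE) for Rgs5, 65.4 times the level. Both were called by limma (one-sided, mean above the level) with Benjamini-Hochberg adjustment over all 35557 probe sets (adjusted p = 1.84e-05 for Crip1 and 1.35e-05 for Rgs5). At the same threshold of 0.05, 32.0% of all probe sets were called, 11395 in number, and a count of 2 of 2 is read against that share. On no array did any of the 1027 olfactory receptor genes exceed either gene, their highest signals being 9.81, 8.81 and 9.37 in replicates 2, 4 and 5. Probe affinity also sets a signal, so the difference between the signals of Rgs5 and Crip1 does not rank their transcripts.

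**Figure D1:**
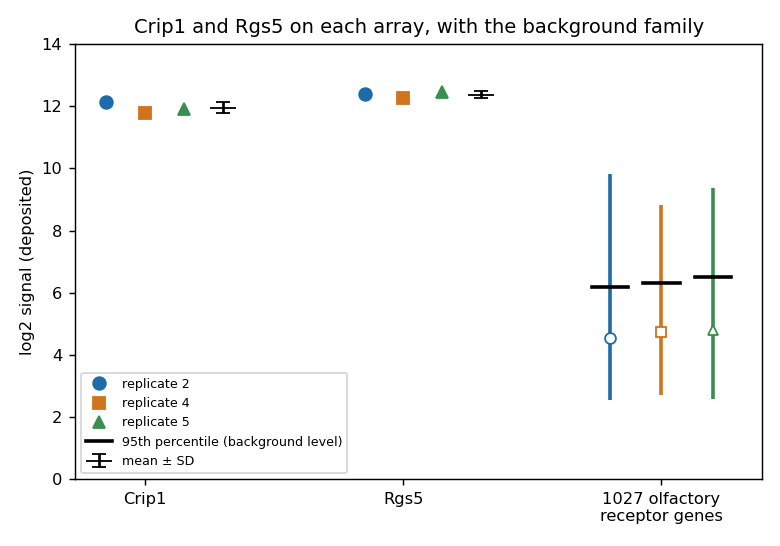
Deposited log2 signal (vertical axis) of Crip1 and Rgs5 on each of 3 arrays, with mean ± SD, beside the range (line), median (open symbol) and 95th percentile (black bar) of 1027 olfactory receptor genes on each array. All 6 values of the 2 genes lie above the highest olfactory receptor gene of their array.

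**Figure D2:**
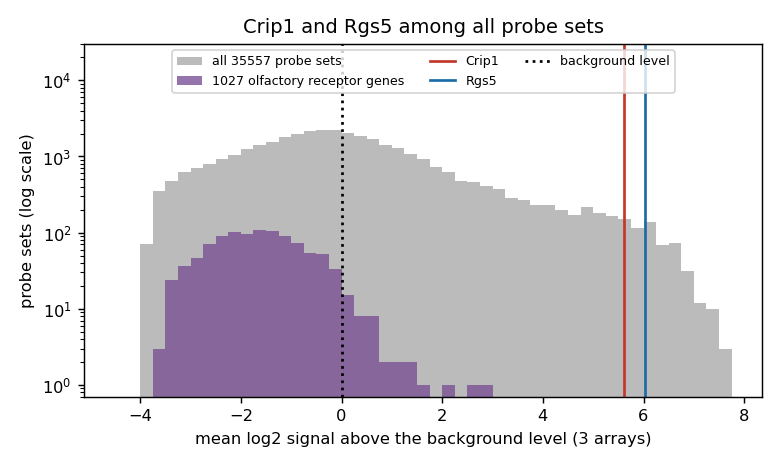
Number of probe sets (vertical log axis) by mean log2 signal above the background level over 3 arrays, for all 35557 probe sets and for 1027 olfactory receptor genes. The lines mark Crip1 at 5.61 and Rgs5 at 6.03, beyond all of the olfactory receptor genes.

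Both calls held under all 13 alternatives. The smallest heights above background, 3.28 for Crip1 and 3.70 for Rgs5, came with a level from keratin-associated protein genes. Of those 44 genes 9 (20.5%) were themselves called above the olfactory receptor level, so that family was not silent here. The largest heights, 6.50 and 6.93, came with a level from vomeronasal receptor genes. With each replicate left out in turn, the height of Crip1 lay between 5.44 and 5.71 and that of Rgs5 between 5.95 and 6.08. The largest adjusted p of any alternative was 0.00059 for Crip1 and 0.000585 for Rgs5, without replicate 2 in both cases (limma).

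Neither gene varied much between samples. The highest array exceeded the lowest by 0.36 log2 units for Crip1, a ratio of 1.28, and by 0.20 for Rgs5, a ratio of 1.15. The median SD of the 11395 called probe sets was 0.27, and 69.4% of them had a larger SD than Crip1 and 87.9% a larger SD than Rgs5. Bright probe sets vary less. Among the 500 called probe sets nearest in mean signal, with median SDs of 0.15 around Crip1 and 0.12 around Rgs5, 37.4% varied more than Crip1 and 59.2% more than Rgs5.

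Which sample was highest depended in part on the scale. On the deposited values, replicate 2 of Crip1 lay 0.30 above the mean of the other 2 arrays, replicate 4 lay at -0.24 and replicate 5 at -0.06. For Rgs5 the same differences were 0.03, -0.17 and 0.14. After quantile normalization they were 0.25, -0.31 and 0.05 for Crip1 and -0.03, -0.23 and 0.25 for Rgs5, and relative to each array's background level 0.51, -0.20 and -0.31 for Crip1 and 0.24, -0.13 and -0.11 for Rgs5. Replicate 2 was the highest for Crip1 on all 3 scales. The highest array of Rgs5 was replicate 5 on the first 2 scales and replicate 2 relative to background, and the lowest array of Crip1 was replicate 4 on the first 2 and replicate 5 relative to background.

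Transcripts of other cell types also differed between the arrays, and their part in these differences was not tested. Smooth muscle markers, of which 9 of 10 were called, had median differences of 0.20, -0.18 and -0.04 in replicates 2, 4 and 5. These signs are those of Crip1 on the deposited values, with 8 of 10 markers higher in replicate 2 and 1 of 10 in replicate 4. Mesangial markers (4 of 6 called) had the same signs at 0.54, -0.09 and -0.45, with 6 of 6 higher in replicate 2. So did endothelial markers at 0.39, -0.09 and -0.34, with 1 of 10 called, 3 without replicate 5 and 10 with background at the 90th percentile. Of these markers 8 of 10 were higher in replicate 2 and the rest lower. Pecam1 had the widest gap, at 9.03, 6.87 and 6.79 in replicates 2, 4 and 5. Pericyte markers (6 of 7 called) shared the signs too but differed less, by 0.03, -0.05 and -0.05. Podocyte markers (0 of 4 called) also had these signs, at 0.22, -0.05 and -0.26. Fibroblast markers (3 of 6 called) did not, at -0.16, -0.08 and 0.20. Thick ascending limb markers (5 of 5 called) stood at a median of 4.10 log2 units above background and had median differences of 0.04, 0.67 and -0.96. Proximal tubule markers (10 of 10 called) stood at 4.40 and had 0.25, 0.39 and -0.59, so both tubule lists were lowest in replicate 5, where Rgs5 was highest on the deposited scale. Principal cell markers (6 of 6 called, 2 with background at the 99th percentile) had -0.64, 0.51 and -0.01. Over all called genes the median differences were 0.12, 0.06 and -0.19. Fewer cells of a type and less RNA per cell cannot be told apart in such bulk samples.

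**Figure D3:**
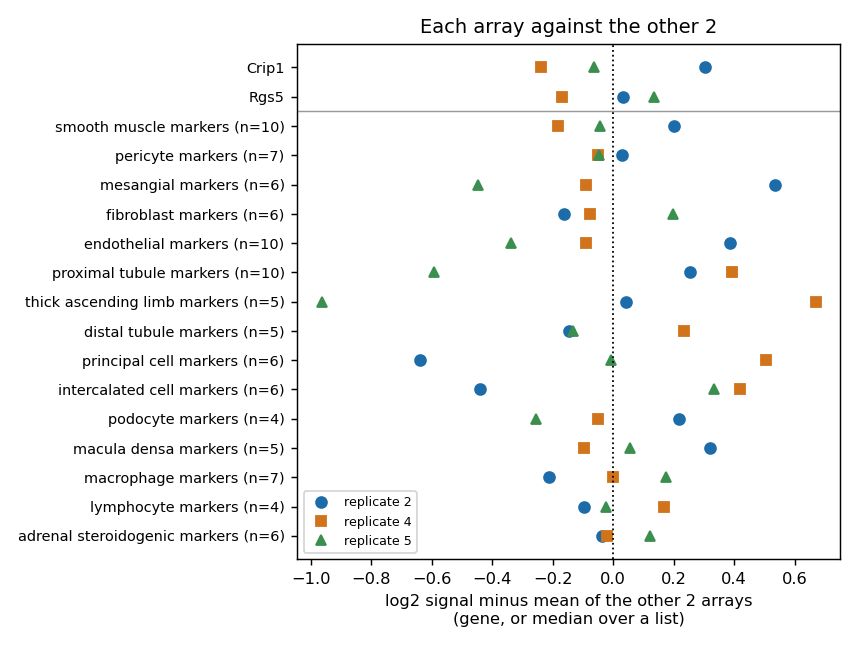
Log2 signal of each array minus the mean of the other 2 (horizontal axis) for Crip1 and Rgs5 (top) and, as the median over its genes, for each marker list with at least 4 measured genes. Crip1 and Rgs5 lie between -0.24 and 0.30, while the thick ascending limb list spans 0.67 in replicate 4 to -0.96 in replicate 5.

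Other cell types also express Crip1 and Rgs5, and renin cells share genes with smooth muscle and pericytes. In bulk samples the lists do not tell a marker in renin cells from one in other cells, and the source of the signals was not tested. Called shares were 9 of 10 for smooth muscle, 6 of 7 for pericyte, 4 of 6 for mesangial and 3 of 6 for fibroblast markers, against 52.2% of the 184 measured genes of all lists and 34.8% of all genes. List medians above background were 4.30, 1.56, 1.67 and 0.27 log2 units in that order, against a median of -0.01 over all genes. Proximal tubule markers (10 of 10 called) had a median of 4.40, above that of smooth muscle, and thick ascending limb markers (5 of 5) one of 4.10. Distal tubule markers were called in 3 of 5 cases and intercalated cell markers in 6 of 6 (3 with background at the 99th percentile), and limma called 0 of 4 podocyte, 0 of 7 macrophage, 0 of 4 lymphocyte, 0 of 2 erythroid and 0 of 6 adrenal steroidogenic markers. At an unadjusted p under 0.05 these counts were 0, 1, 0, 0 and 0. With background at the 90th percentile they were 2, 3, 1, 0 and 0, and with vomeronasal receptor genes as background 4, 5, 2, 1 and 0. Akr1b7 is also abundant in the mouse adrenal cortex, but it has no value here and the adrenal list says nothing of it. All 6 genes of that list lay under the level in the mean, Star at -0.58 and Hsd3b1 at -2.45. Macula densa markers were called in 1 of 5 cases, in 2 without replicate 5 and in 5 with vomeronasal receptor genes.

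The genes closest to Crip1 and Rgs5 in their pattern over the arrays were taken as the 3 called genes with the smallest Euclidean distance between log2 signals centred over the 3 arrays. For Crip1 they were Cald1, caldesmon of the contractile apparatus (distance 0.01), Serinc4 and Dmap1 (both 0.01). For Rgs5 they were Aebp2 (0.002), Lamb2, a laminin chain (0.01), and Naca (0.01). With 3 arrays such closeness is common. Within a distance of 0.1 lay 292 other called probe sets for Crip1 and 470 for Rgs5, out of 11395, and the distance between the 2 genes themselves was 0.23.

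The relatives of Crip1 include the muscle LIM proteins of the CSRP group, which bind actin filaments. Of 5 measured genes of the CRIP and CSRP family 3 were called, against 34.8% of all genes. Csrp1, found in smooth muscle, had a log2 signal of 10.57, 10.24 and 10.36 in replicates 2, 4 and 5 and stood 4.05 above background (limma adjusted p = 6.58e-05). Csrp2 had a mean of 9.71 ± 0.07 (SD), 3.37 above background. Crip2, another small LIM domain protein gene, had 7.66, 7.68 and 6.77, with replicate 5 far under the others, and a mean 1.03 above background (limma adjusted p = 0.0273). Its call was lost without replicate 2 (limma adjusted p = 0.126), without replicate 4 (limma adjusted p = 0.0983) and with background at the 99th percentile. Crip3 (6.72 ± 0.13, limma adjusted p = 0.0632) and Csrp3 (6.58 ± 0.21, limma adjusted p = 0.209), the form of striated muscle, did not pass. Crip3 was called in 4 of 13 alternatives and Csrp3 in 2, and both, so 5 of 5 genes of the family, with background at the 90th percentile (limma adjusted p = 0.00525 and 0.0124).

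Rgs5 is an RGS protein, and of 13 other measured genes on a list of RGS proteins 2 were called, against 34.8% of all genes. The count ran between 1 and 6 over the alternatives, with 5 at the 90th percentile and 6 with vomeronasal receptor genes as background. Rgs2, which acts on Gq alpha downstream of the angiotensin II receptor, had log2 signals of 10.89, 10.37 and 10.66 in replicates 2, 4 and 5, 4.30 above background (limma adjusted p = 6.44e-05). Rgs3 had a mean of 7.04 ± 0.21, 0.69 above background (limma adjusted p = 0.0148). That call was lost when replicate 2 or replicate 4 was left out (limma, adjusted p of 0.0797 and 0.052), with background at the 99th percentile, and with the mean of its probe sets, the other of which was under the level. Rgs4, another mural cell gene, had 7.28, 6.51 and 5.89 and did not pass (limma adjusted p = 0.644), the spread of its samples being 0.69 (SD). Rgs14 (6.62 ± 0.13), Rgs16 (6.52 ± 0.18) and Rgs19 (6.52 ± 0.14) lay less than 0.3 above the level and did not pass, but were called with background at the 90th percentile (limma, adjusted p of 0.017, 0.0122 and 0.0289). The other 7 had means under it, down to -3.04 for Rgs13, a gene of lymphocytes and mast cells.

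Relatives of Akr1b7 and renin say nothing of those genes, and are given because their own probe sets are listed. Of 15 other aldo-keto reductases 5 were called, against 34.8% of all genes. Akr1a1, the aldehyde reductase abundant in kidney tubules, had 12.39, 12.32 and 12.07 in replicates 2, 4 and 5, 5.92 above background. Akr1c21, a hydroxysteroid dehydrogenase, stood at 11.39 ± 0.23 (SD) and Akr1e1 at 9.27 ± 0.17. Akr7a5 (7.56 ± 0.35) and Akr1b10 (7.28 ± 0.37) were called (limma adjusted p = 0.00867 and 0.0168) but not with background at the 99th percentile, and Akr1b10 not without replicate 2 (limma adjusted p = 0.0593). Akr1b8, of the same subfamily as Akr1b7, had 5.13, 6.37 and 5.43, with replicate 4 apart from the others, and its mean was under the level at -0.70. Akr1c19 (7.02 ± 0.63) did not pass (limma adjusted p = 0.0995) but was called in 6 of 13 alternatives, without replicate 5 among them (limma adjusted p = 0.0411). The lowest was Akr1c12, at -1.96.

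Renin is an aspartic protease, and of 8 other measured members of that family 3 were called, against 34.8% of all genes. Ctsd, the lysosomal protease cathepsin D, had 10.64, 10.72 and 9.92 in replicates 2, 4 and 5, 4.09 above background (limma adjusted p = 0.000199). Bace1, a membrane-bound protease, stood at 8.38 ± 0.39 and Napsa, napsin A of kidney and lung, at 7.31 ± 0.37 (limma adjusted p = 0.0157). Napsa was not called without replicate 2 (limma adjusted p = 0.0536) or with background at the 99th percentile. The stomach proteases Cym (6.51 ± 0.24, limma adjusted p = 0.468) and Pgc (5.36 ± 0.14) and the gastric and immune cell protease Ctse (5.78 ± 0.28) did not pass.

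**Figure D4:**
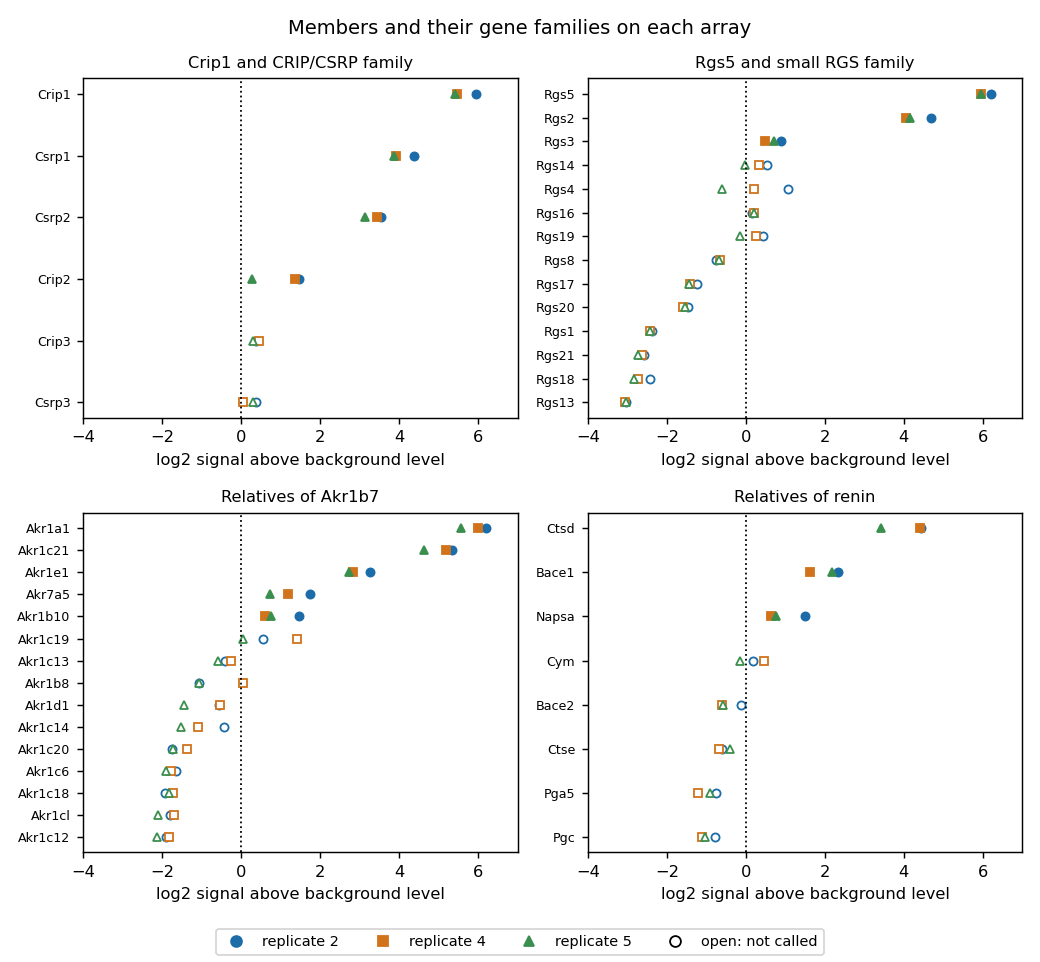
Log2 signal above the background level (horizontal axis) on each of 3 arrays for Crip1 and its family, Rgs5 and its family, and relatives of Akr1b7 and of renin, which were found on no listed probe set. Filled symbols mark called genes, and apart from Crip1 and Rgs5 they number 13 of 41, against 34.8% of all genes called. Positions on the axis also depend on probe affinity and do not rank transcripts.

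Regulators of renin transcription were called in 13 of 17 cases, with a median 1.81 above background. The shares called were 34.8% of all genes and 52.2% of the genes of all lists. The count was 10 with background at the 99th percentile and 12 with the mean of a gene's probe sets. It was 0 with keratin-associated protein genes as background, of which 9 of 44 were themselves called above the olfactory receptor level. With that background 2234 of all 35557 probe sets were called, against 11395 (limma). Creb1, whose product binds cAMP response elements, had log2 signals of 9.03, 9.33 and 8.64 in replicates 2, 4 and 5. Also called were its coactivator Ep300 (8.80 ± 0.64) and Hoxd10 (8.75 ± 0.44), whose product binds the proximal renin promoter. The nuclear factor I genes Nfia, Nfib and Nfix stood at 8.36 ± 0.43, 8.80 ± 0.72 and 8.79 ± 0.63, and Usf2 at 8.06 ± 0.16. Crebbp (9.79 ± 0.63) and Nr2f2 (9.29 ± 0.13) had the highest signals of the list. Rbpj was called on its brighter probe set, 1.65 above background, while its other probe set lay at -1.09. Vdr, the vitamin D receptor, which represses renin in mice, had 8.61, 8.80 and 7.03 in replicates 2, 4 and 5 (limma adjusted p = 0.0177), replicate 5 being far under the others. Its call was lost when replicate 2 or replicate 4 was left out (limma, adjusted p of 0.0889 and 0.0522) and with background at the 99th percentile (limma adjusted p = 0.221). A low replicate 5 was not particular to Vdr. Over the 17 regulators its median difference from the mean of the other 2 arrays was -0.54, with 4 of 17 higher. Over all called genes that difference was -0.19. Nr1h3, the oxysterol receptor, did not pass (6.63 ± 0.40, limma adjusted p = 0.192), nor did Crem (6.35 ± 0.30) or Usf1 (5.32 ± 0.40), whose mean was under the level. Most of these factors work in many cell types.

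Of 17 measured receptors and channels of renin release 12 were called, against 34.8% of all genes. The count was 5 with background at the 99th percentile and 2 with keratin-associated protein genes. Gja5 had the highest signal of that list, at 11.34 ± 0.32. Casr, the calcium-sensing receptor, through which calcium inhibits renin release and which the thick ascending limb also expresses, was at 8.21 ± 0.31. Kcnma1, a calcium-activated potassium channel, was the lowest, at -1.06 relative to the level. Of 13 measured genes of the renin-angiotensin system 7 were called, against 34.8% of all genes and 52.2% of the genes of all lists. The count was 9 with background at the 90th percentile, 3 at the 99th and 1 with keratin-associated protein genes. Enpep had the highest signal of these, at 10.00 ± 0.18. Ace, whose product captopril blocks, did not pass (6.75 ± 0.42, limma adjusted p = 0.182). Anpep, an aminopeptidase of the proximal tubule brush border that cuts angiotensin III, was at 8.04 ± 0.33 (limma adjusted p = 0.0024, and 0.0502 with background at the 99th percentile). Cma1, a mast cell chymase, was the lowest, at -1.09 relative to the level.

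**Figure D5:**
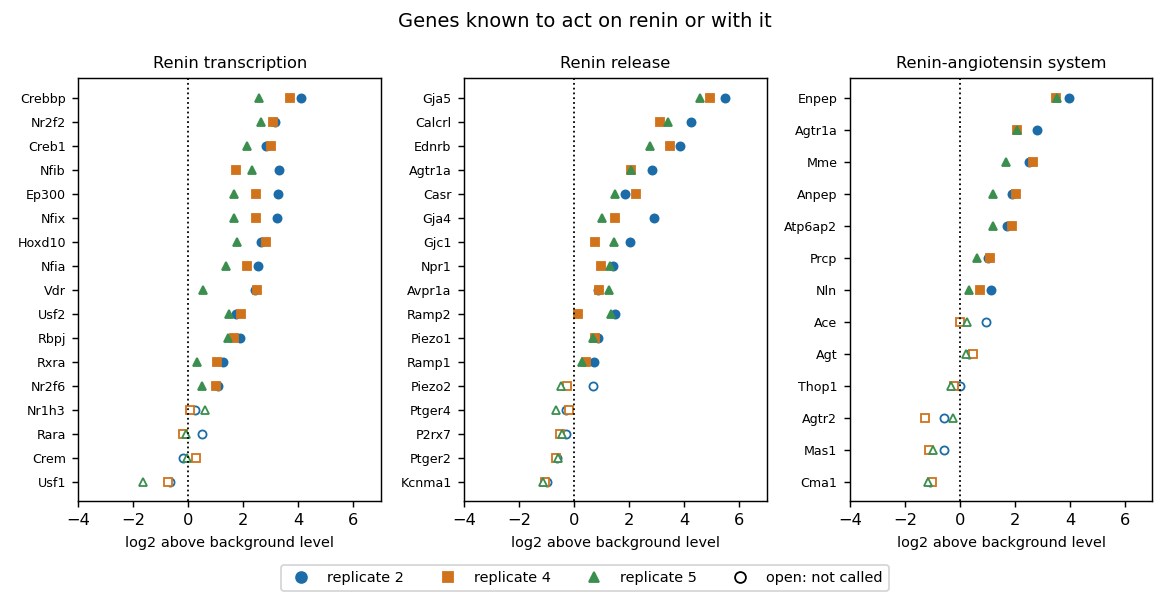
Log2 signal above the background level (horizontal axis) on each of 3 arrays for genes of renin transcription, of renin release and of the renin-angiotensin system. Filled symbols mark the 13 of 17, 12 of 17 and 7 of 13 genes called, against 34.8% of all genes called. Open symbols mark the rest.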

How the data were processed

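Biotin-labelled RNA, amplified in 1 round per the labels, of 3 samples of sorted cells was hybridised to Affymetrix arrays of 1 colour. The authors deposited log2 signals, with 1 value for each array's probe sets. The submitters' processing notes name Affymetrix Expression Console. No source used here gives its version, summary method or normalization. The log2 base was inferred from the values, whose medians were 6.09, 6.11 and 6.21 in replicates 2, 4 and 5. The number of arrays limits the precision.

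Symbols came from the platform's annotation, which names 1 gene for 21789 probe sets, several for 1621 and none for 12147. A gene with several probe sets was represented by the brightest. Signal minus the array's background level was fitted on all 35557 probe sets by limma (version 3.58.1, R version 4.3.3), with an intercept alone and eBayes with trend. On simulated arrays of 35557 probe sets it called 36.0%, 92.0%, 100% and 100% of those planted at heights of 0.5, 1, 2 and 4 on the log2 scale. It called 0.0154% of the simulated probe sets at or under the level. Many of these lay well under it, so that share is no rate of false calls at the level itself. Planted probe sets kept the noise simulated for the dim probe sets they replaced. The shares of them called may therefore be too high for genes that vary more between arrays. Of the olfactory receptor genes, 19 (1.85%) were called. At an unadjusted p under 0.05, 12832 probe sets passed.

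The members and the 23 lists (200 symbols, 184 measured) were chosen with earlier results of these data known. The naming rule took both members, genes of the 4 families, selected members of the renin and marker lists and the 3 genes nearest in pattern. Family genes of low signal are given by range. Sequences are from RefSeq, GRCm38.p6; 4 of the 5 genes matched. Alternatives changed the background family or percentile, the normalization, the variance model, the rows fitted, the summary of probe sets and the replicates. Python 3.11.15, pandas 2.3.3 and numpy 2.4.6 were used.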

Additional observations from a re-analysis of the deposited data

How the results depend on the processing

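The calls of Crip1 and Rgs5 kept their direction and their side of the threshold under all 13 alternatives. The number of probe sets above background was 11395, 5819 with the 99th percentile as background, 20075 with vomeronasal and 2234 with keratin-associated protein genes, 7437 with 1 row a gene and 7313 with the mean of a gene's probe sets. The last 2 settings fit fewer rows. Of the 184 measured list genes 96 were called, 145 with vomeronasal and 29 with keratin-associated protein genes. Without each replicate in turn these counts lay between 8945 and 11481 probe sets and between 82 and 97 list genes. With the keratin-associated protein level the means of called genes fell under it for Nfia (-0.31), Usf2 (-0.61), Vdr (-0.52), Casr (-0.46), Anpep (-0.62), Bace1 (-0.28), Napsa (-1.36), Akr7a5 (-1.10), Akr1b10 (-1.39), Crip2 (-1.30) and Rgs3 (-1.63), and at the 99th percentile for Rgs3 (-0.17). Calls were also lost at the keratin-associated protein level for Creb1, Ep300, Hoxd10, Nfib, Nfix, Akr1e1 and Csrp2, whose means stayed above it. Both settings raise the level, and 20.5% of the keratin-associated protein genes were themselves called above the olfactory receptor level. Lower levels added calls: Nr1h3, Cym, Akr1c19, Crip3, Csrp3, Rgs14, Rgs16 and Rgs19 were called with the 90th percentile and with vomeronasal genes, and Crem and Rgs4 with vomeronasal genes alone. Akr1c19 was called in 6 of 13 alternatives and Crip3 in 4. The range over arrays was 0.318 for Rgs5 after quantile normalization. Leaving out a replicate gave ranges of 0.0693 to 0.20 for Rgs5 and 0.12 to 0.36 for Crip1. The endothelial count was 1 of 10 and ranged from 0 to 10. No paired analysis was possible because there is only 1 group. Signal near background limits the weaker calls: of probe sets planted 0.5 log2 units above it the simulation called 36.0%. The planted probe sets carried the noise of dimmer ones, so that share may be too high.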
